A study of Mus musculus with 6 samples.

Results

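The 6 genes described here encode proteins that an egg displays or releases at fertilization: Plat, Serpine2, Astl, Izumo1r, Cd9 and Cd81. They were taken by name from the 22416 genes of the deposited table of ribosome footprints, and all 6 were among the 15129 genes that averaged 1 FPKM or more and were tested. FPKM is the number of footprint fragments relative to the length of the coding sequence and to the reads of the library. The genes were selected with their values in these libraries known, so their own levels and changes are given as a description and carry no p-value. The study asked whether RNA G-quadruplexes (rG4s), folded stretches of G-rich RNA, hold ribosomes off mRNAs that oocytes keep silent. It used Ribo-lite, a form of ribosome profiling that works with few cells and sequences the mRNA fragments covered by ribosomes, in 6 libraries of 3 groups, with n = 2 in each.

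All oocytes were wild type and came from the ovaries of 4-week-old female mice, 44 h after an injection of PMSG, and each library was a pool of 500 oocytes. WT_FGO held fully grown oocytes at the germinal vesicle (GV) stage, WT_MII control oocytes that had reached metaphase II (MII), and Treat_MII treated oocytes at MII. By the study's methods, oocytes were collected at the GV stage and matured in culture. For the third group the labels say no more than that it was treated, and the study's methods name BYBX, a ligand that binds and stabilizes rG4s, with its solvent DMSO for the controls. The study's supplement calls the Ribo-lite replicates biological, but neither it nor the labels say that they came from separate collections of oocytes, so the spread between them may be in part technical. The libraries held from 94309 to 331304 reads, with the fewest in WT_FGO and the most in Treat_MII. Replicates correlated (Spearman) at 0.499 in WT_FGO, 0.608 in WT_MII and 0.732 in Treat_MII over the 15129 tested genes. Over the 2707 of these with at least 60 reads in all, the values were 0.85, 0.853 and 0.959. The supplement gives higher Spearman correlations, over genes that it does not state. Every value is relative to its own library, and fewer ribosomes per oocyte, less mRNA per oocyte and fewer ribosomes per mRNA cannot be told apart. Of the 12 oocyte markers, 10 or 11 were above 0 in every library, with a summed level of 40790 to 59260 FPKM in WT_FGO, 8576 to 8699 in WT_MII and 16430 to 16890 in Treat_MII. Sperm surface genes summed to 14.8 to 34.2 FPKM in every library, and Izumo1, the sperm partner of Izumo1r, was listed at 0 in 5 of the 6. Blood, immune and endothelial markers summed to 13.5 to 85.9 FPKM.

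An ovulated egg is covered by the zona pellucida, a coat of glycoproteins that sperm must cross before they reach the plasma membrane. At the membrane, Juno, the protein of Izumo1r, binds IZUMO1 on the sperm, and the tetraspanins CD9 and CD81 help the membranes fuse. After fusion, cortical granules release the protease ovastacin, the product of Astl, which cuts ZP2 and so blocks further sperm. Tissue-type plasminogen activator, the product of Plat, is also secreted by the egg and turns plasminogen into the protease plasmin, and Serpine2 encodes protease nexin 1, an inhibitor of plasminogen activators and thrombin. Plat mRNA is a textbook case of a message that mouse oocytes store with a short poly(A) tail and translate once meiosis resumes. Its control elements lie in the 3′-UTR, where a cytoplasmic polyadenylation element (CPE) stands upstream of the poly(A) signal.

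In the reference transcript, Plat had exactly such an arrangement. The gene lies on GRCm38 chr8:22757727-22782844 (plus strand), and its coding sequence is 1677 bases long. The following 30-base windows of its 3′-UTR are shown because they hold the CPE and the poly(A) signal, each in capitals, with ends 82 and 23 bases before the end of the transcript. The first window is chr8:22782744-22782773 and the second is chr8:22782804-22782833, and both read along the plus strand.
Plat CPE: agtatatttataTTTTAATctattttagtt
Plat poly(A) signal: ctgtacttaaatAATAAAttcagaggtatt

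The footprints of Plat rose from almost none to among the most abundant of the oocyte. Its level was 0 and 44.5 FPKM in the 2 WT_FGO libraries (0 and 8 reads), 7359 and 6565 in WT_MII (2036 and 2542 reads), and 7883 and 8133 in Treat_MII (4380 and 3759 reads). The MII libraries all stood far above both WT_FGO libraries and close to each other. With the reads of each group pooled, the share of reads from Plat was 291-fold higher in WT_MII than in WT_FGO, with an exact 95% interval of 148 to 675. Such intervals cover counting error only, and PCR copies are not independent molecules. Plat took 1.23% and 1.10% of all reads in WT_MII and 1.32% and 1.36% in Treat_MII, and in these 4 libraries it ranked between 8 and 16 of all 22416 genes. The fitted change at maturation was 10.01 ± 1.59 (SE) on the log2(FPKM + 1) scale, which ranked 1 among the 15129 tested genes. The size of this change rested on the few reads of WT_FGO, and was 7.26 without WT_FGO replicate 1 and 12.76 without WT_FGO replicate 2.

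**Figure D1:**
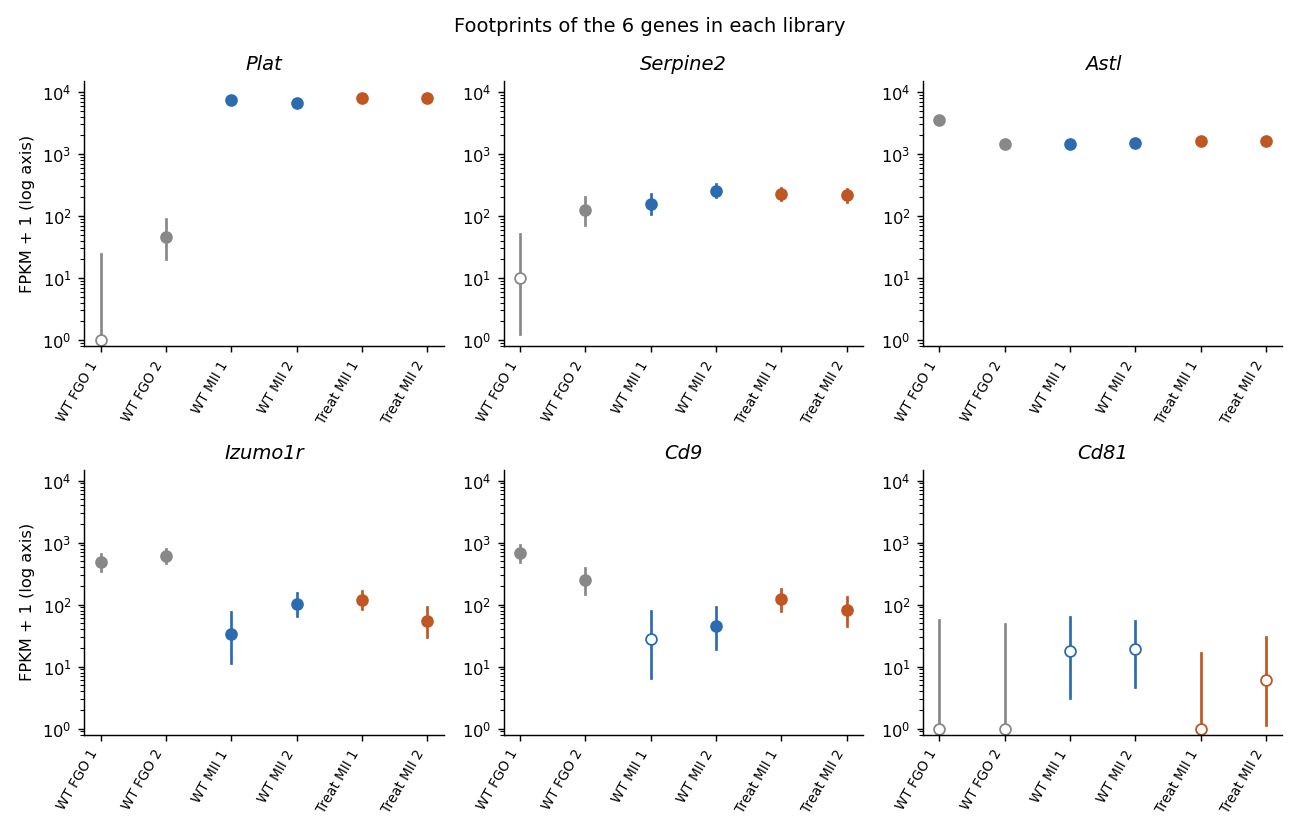
Level of each gene in each library, as FPKM + 1 on a log axis, with grey for WT_FGO, blue for WT_MII and orange for Treat_MII; bars are exact 95% counting intervals and open points mark 3 reads or fewer. Plat sits at 0 and 44.5 FPKM in WT_FGO and between 6565 and 8133 FPKM in all MII libraries, whereas Izumo1r and Cd9 are lower in all 4 MII libraries than in both WT_FGO libraries.

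Serpine2, which encodes the inhibitor, had a far smaller change than Plat, with a wide spread in WT_FGO. Serpine2 lies on chr1:79794197-79861180 (minus strand). It stood at 8.90 and 125 FPKM in WT_FGO (1 and 16 reads), 158 and 254.5 in WT_MII (31 and 70 reads), and 226 and 213 in Treat_MII (89 and 70 reads). Both WT_MII libraries were above both WT_FGO libraries, but the 2 WT_FGO libraries differed 14.1-fold from each other. Pooled reads gave a level 3.03-fold higher in WT_MII than in WT_FGO (exact 95% counting interval 1.80 to 5.40), and the fitted log2 change was 2.51 ± 1.12 (SE). This change was 0.67 without WT_FGO replicate 1 and 4.35 without WT_FGO replicate 2.

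Cumulus and granulosa cells also express Serpine2, and the summed level of their markers was also higher in WT_FGO replicate 2. Of the 16 markers, 7 were higher in that library than in replicate 1, 4 were lower and 5 were at 0 in both. Counted by library, 7 were above 0 in WT_FGO replicate 1 and 10 in WT_FGO replicate 2, with sums of 961 and 2401 FPKM. The sums in WT_MII were 2233 and 431 FPKM and those in Treat_MII were 339 and 358 FPKM. Inha, the inhibin alpha subunit, stood at 29.0 FPKM in WT_FGO replicate 1 and 747 FPKM in replicate 2. Gja1, the gap junction protein connexin 43, stood at 92.5 and 740.4 FPKM, and Amh, the anti-Müllerian hormone, at 57.4 and 196 FPKM. The 4 lower ones were Hsd17b1, an enzyme of oestrogen synthesis (729.5 and 488 FPKM), Cyp19a1, the aromatase (35.1 and 24.7 FPKM), Kitl (11.3 and 0 FPKM) and Amhr2 (6.22 and 5.47 FPKM). Of the markers of cumulus expansion, Has2, Ptgs2, Ptx3 and Tnfaip6 were listed at 0 in both WT_FGO libraries. Of 13 tested markers only Gja1 was called at maturation, as lower in WT_MII (adjusted p = 0.0376 by limma). The part of such cells in the Serpine2 reads of WT_FGO replicate 2 was not tested. Both WT_MII libraries were above both WT_FGO libraries for 3 of the 13 tested markers and below both for 3. In the 4 MII libraries Inha was at most 11.04 FPKM and Gja1 at most 13.2 FPKM, whereas Kitl was at 168 and 32.3 FPKM in WT_MII, Nr5a2 was above 0 in all 4 after 0 in WT_FGO, and Cyp19a1 was between 32.1 and 57.7 FPKM. WT_MII replicate 1 owed most of its sum to Hsd17b1, at 1956 FPKM. All these markers but Gja1 were named after their values were seen.

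Astl was the gene with the most footprints of the 6 before maturation, and its level differed less between the stages than between the 2 WT_FGO libraries. Astl lies on chr2:127338639-127357651 (plus strand). Its level was 3591 and 1429 FPKM in WT_FGO (442 and 200 reads), 1454 and 1509.95 in WT_MII (313 and 455 reads), and 1624 and 1643 in Treat_MII (702 and 591 reads). The WT_MII values fell inside the range of WT_FGO. The fitted log2 change at maturation was -0.61 ± 0.41 (SE), against a median of -0.44 over all tested genes. It was 0.05 without WT_FGO replicate 1 and -1.28 without WT_FGO replicate 2, so its sign rested on a single library. Footprints of Astl were abundant in every library, where the gene ranked between 22 and 72 of all genes.

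Izumo1r, the gene of the sperm receptor Juno, was lower at MII. Izumo1r lies on chr9:14885814-14903949 (minus strand). It was measured at 486 and 606 FPKM in WT_FGO (43 and 61 reads), 32.3 and 101 in WT_MII (5 and 22 reads), and 119 and 54.1 in Treat_MII (37 and 14 reads). The WT_FGO libraries did not overlap with any MII library, whereas the WT_MII and Treat_MII values overlapped. The pooled level was 7.57-fold lower in WT_MII than in WT_FGO (exact 95% counting interval 4.92 to 12.02), and the fitted log2 change was -3.22 ± 0.66 (SE). With any single library left out, this change lay between -4.03 and -2.41.

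Cd9, the tetraspanin that eggs need for fusion, showed the same order of WT_FGO and WT_MII. Cd9 lies on chr6:125460266-125494791 (minus strand). The level was 672 and 248 FPKM in WT_FGO (43 and 18 reads), 26.8 and 44.7 in WT_MII (3 and 7 reads), and 120.2 and 80.3 in Treat_MII (27 and 15 reads). The 3 groups did not overlap, with WT_FGO highest, Treat_MII between and WT_MII lowest. The pooled level was 11.98-fold lower in WT_MII than in WT_FGO (exact 95% counting interval 6.09 to 26.2), and the fitted log2 change was -3.52 ± 0.59 (SE). This value ranged from -4.24 without WT_FGO replicate 2 to -2.80 without WT_FGO replicate 1. Oocyte markers had the same order of groups. Of 11 tested, 11 were lower in both WT_MII libraries than in both WT_FGO libraries (25.8% of all tested genes) and 10 were higher in both Treat_MII libraries than in both WT_MII libraries (16.2% of all tested genes). The part of this shift in the values of Cd9 was not tested. At least 60 reads in all were recovered for 2707 of the 15129 tested genes. Both shares of all tested genes thus rest mostly on genes with fewer reads than most of these markers. Of the 28-base words of the Cd9 coding sequence, 15.4% also occur in other genes. The gene overlaps Gm28809 and Gm26728 on the opposite strand, and since the strand used in counting is not given in the sources used here, reads of the overlap cannot be assigned with certainty. No such shared words were found in the other 5 coding sequences.

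Cd81, a second tetraspanin with a part in fusion, had too few reads for a comparison of its level between groups. Cd81 lies on chr7:143052739-143067934 (plus strand) and overlaps R74862 on the other strand. It had 0 reads in both WT_FGO libraries, 2 and 3 reads in WT_MII (17.1 and 18.4 FPKM), and 0 and 1 reads in Treat_MII (0 and 5.12 FPKM). All 6 values were at or under the floor of 3 reads, the usual limit that a count of 0 allows, and no fold is given. In WT_FGO this floor stood at 44.9 FPKM in replicate 1 and 39.5 FPKM in replicate 2, and the exact two-sided 95% counting intervals of the plotted levels reached 55.25 and 48.58 FPKM.

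Among the 6 genes the order of levels changed between the stages. In WT_FGO the mean per kilobase of coding sequence was 2510.2 ± 1529.1 FPKM (SD, n = 2) for Astl, 546 ± 85.0 for Izumo1r, 460.01 ± 300.5 for Cd9, 67.1 ± 82.3 for Serpine2, 22.2 ± 31.5 for Plat and 0 for Cd81. Izumo1r and Cd9 overlapped, as did Serpine2 and Plat, and Plat and Cd81 shared a value of 0 in replicate 1. In WT_MII it was 6962 ± 562 for Plat (SD, n = 2), 1482 ± 39.7 for Astl, 206 ± 68.4 for Serpine2, 66.9 ± 48.9 for Izumo1r, 35.8 ± 12.7 for Cd9 and 17.7 ± 0.868 for Cd81. Only the neighbours Izumo1r and Cd9 overlapped there, and Cd81 rested on 5 reads. In Treat_MII it was 8008 ± 177 for Plat (SD, n = 2), 1633 ± 13.8 for Astl, 219 ± 8.70 for Serpine2, 100.2 ± 28.2 for Cd9, 86.5 ± 45.8 for Izumo1r and 2.56 ± 3.62 for Cd81, and Cd9 and Izumo1r overlapped again. Plat thus moved from the fifth place to the first, and secreted proteins took the first 3 places at MII.

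**Figure D2:**
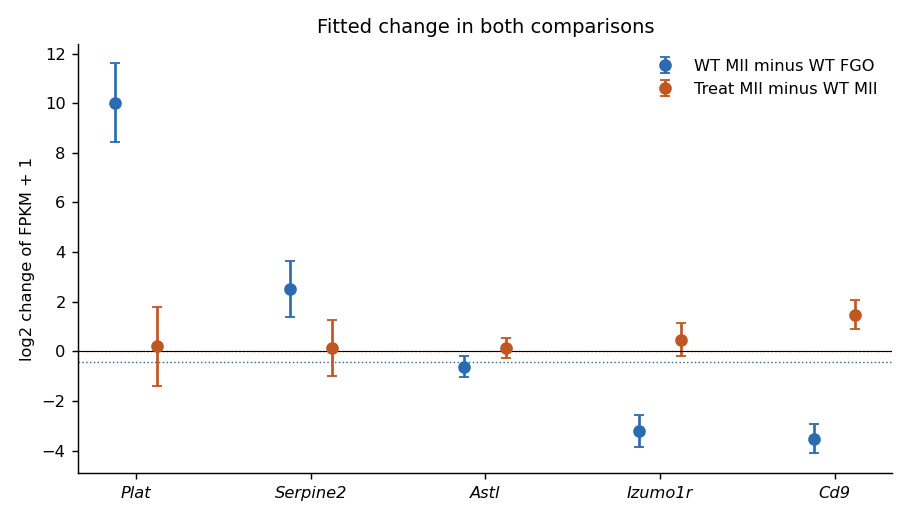
Fitted log2 change of FPKM + 1 with its standard error for 5 genes, in blue for WT_MII minus WT_FGO and in orange for Treat_MII minus WT_MII; dotted lines mark the median of all 15129 tested genes and Cd81 is left out for its few reads. Plat stands at 10.01 and Cd9 at -3.52 in the first comparison, and all values of the second lie between 0.13 and 1.48. The standard errors pool the spread within all groups, so those of the second comparison also take in WT_FGO.

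The test across all genes was limma on log2(FPKM + 1), with Benjamini-Hochberg adjustment over the 15129 tested genes. At maturation it called 3.67% of them higher in WT_MII and 3.09% lower at an adjusted p under 0.05 (555 and 468 genes). With each library centred on its median the split was 758 higher and 305 lower. Of the 6 genes, 1 (Plat) was called higher and 2 (Izumo1r and Cd9) lower. Since the genes were chosen on these values, nothing is read from that count. Both WT_MII libraries stood above both WT_FGO libraries for 15.3% of the tested genes and for 3 of the 6 (Plat, Serpine2 and Cd81, the last with at most 3 reads), and below both for 25.8% of the tested genes and for 2 of the 6 (Izumo1r and Cd9). The calls depended on which libraries were fitted. Treat_MII is outside this comparison, and leaving out either of its libraries kept the fitted changes of Plat, Izumo1r and Cd9 at 10.01, -3.22 and -3.52. Its libraries enter such a call through the spread, which all groups share. Without WT_FGO replicate 1 only Plat was called, and without WT_FGO replicate 2 Plat, Serpine2, Astl and Cd9 were called. None of the 6 was called without WT_MII replicate 1, WT_MII replicate 2, Treat_MII replicate 1 or Treat_MII replicate 2. Without 3 of these 4 libraries (all but WT_MII replicate 2) limma called 0 of all tested genes, although between 2930 and 3349 genes had an unadjusted p under 0.05.

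**Figure D3:**
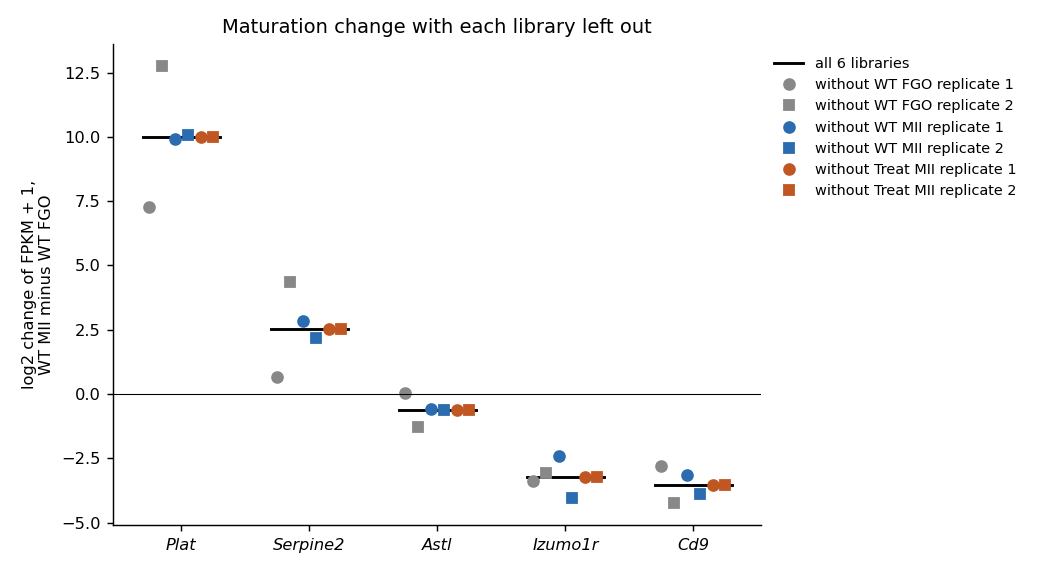
Fitted log2 change of FPKM + 1 at maturation (WT_MII minus WT_FGO) for 5 genes with all 6 libraries (black line) and with each library left out (points, coloured by the group of that library). The WT_FGO libraries move the values of Plat, Serpine2 and Astl most, and Astl lies at 0.05 without WT_FGO replicate 1.

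The comparison of Treat_MII with WT_MII gives differences in footprint level. No mRNA level stands beside them here, so it cannot give the ribosome load per mRNA. The study counted transcripts by the size of their change and also divided footprints by mRNA levels, so its counts are another measure. No gene of the table passed the limma test in this comparison, so the share called was 0% in the higher and 0% in the lower direction. By limma 881 genes had an unadjusted p under 0.05, and the lowest adjusted p was 0.249. None of the 6 genes was called. The voom fit of limma on recovered reads called 165 genes, of which Plat was the only one among the 6, with a log2 change of 0.23 ± 0.05 (SE). Both Treat_MII libraries stood above both WT_MII libraries for 16.2% of the tested genes and for 3 of the 6 (Plat, Astl and Cd9), and below both for 15.6% and for 1 of the 6 (Cd81, with at most 3 reads in each library). The treatment comparison shares the WT_MII libraries with that of maturation, so a low WT_MII value enters both.

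For Plat, the pooled level was 1.16-fold higher in Treat_MII than in WT_MII, with an exact 95% counting interval of 1.12 to 1.20, and the fitted log2 change was 0.20 ± 1.59 (SE). For Astl, the ratio was 1.10 (1.004 to 1.20) and the fitted change 0.14 ± 0.41 (SE). Serpine2 had a ratio of 1.03 (0.795 to 1.33) and a fitted change of 0.13 ± 1.12 (SE). For these 3 genes of secreted proteins the counting intervals reached at most 1.33-fold higher. The standard errors of the fit pool the spread within all 3 groups, so they also take in that of WT_FGO, which is outside this comparison. With only the 2 compared groups fitted, they were 0.39 for Plat, 0.17 for Astl, 0.29 for Serpine2, 0.39 for Cd9 and 0.79 for Izumo1r. Cd9 had a ratio of 2.74 (1.35 to 6.12), on 42 reads against 10, and a fitted change of 1.48 ± 0.59 (SE). Izumo1r had a ratio of 1.23 (0.758 to 2.04) and a fitted change of 0.48 ± 0.66 (SE), which was -0.33 without WT_MII replicate 1 and -0.08 without Treat_MII replicate 1. Over all tested genes the median change was 0.00.

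The genes with the most similar profiles over the 6 libraries differed from gene to gene. Likeness was the distance between log2(FPKM + 1) profiles, each centred on its mean, among tested genes with at least 60 reads in all, and the 3 nearest genes are named. Nearest to Plat were Obox5, an oocyte homeobox gene (distance 1.74), Tcl1b4 (2.37) and AU022751 (3.10). Obox5 was at 0 and 32.0 FPKM in WT_FGO, at 1889 and 2818 in WT_MII and at 2662 and 2373 in Treat_MII. Like Plat it was low in WT_FGO and high in both MII groups, at a lower level. Its WT_MII and Treat_MII values overlapped, whereas those of Plat did not. Nearest to Cd9 were Zp3, the zona glycoprotein (0.745), Psmb4, a proteasome subunit (0.901), and Fbxw27 (0.960). Zp3 stood at 7769 and 4164 FPKM in WT_FGO, 486 and 497 in WT_MII, and 1419 and 1429 in Treat_MII, so it shared with Cd9 the middle place of Treat_MII. Astl lay nearest to Btk (0.395), BC055324 (0.422) and Ank3 (0.441), Izumo1r to Ap1m2 (0.912), Pak1ip1 (0.945) and Psmc5 (0.972), and Serpine2 to Csnk2a2 (0.598), Pdp1 (0.692) and Matr3 (0.768). The 3 genes nearest to Cd81 (Ap4e1, Patl1 and Ccdc6, from 1.71 to 2.46) were placed by its few reads.

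**Figure D4:**
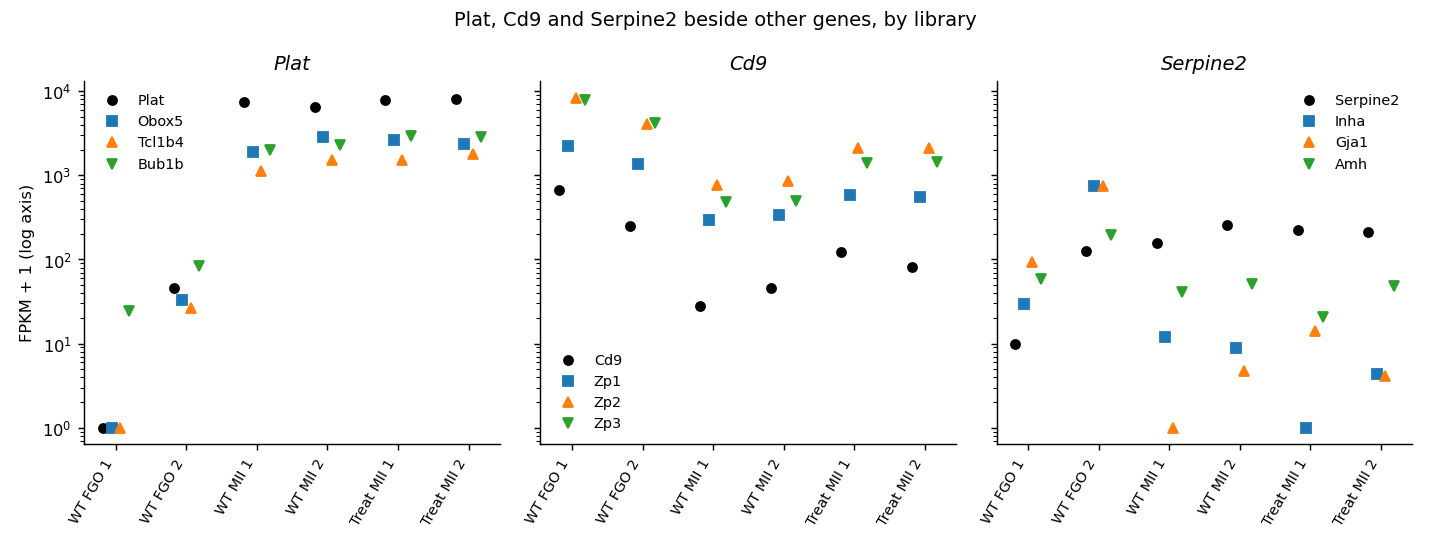
Levels by library as FPKM + 1 on a log axis for Plat with Obox5, Tcl1b4 and Bub1b, for Cd9 with the zona genes Zp1, Zp2 and Zp3, and for Serpine2 with the granulosa markers Inha, Gja1 and Amh. Cd9 and the zona genes are highest in WT_FGO and lowest in WT_MII, and Inha and Gja1 are highest in WT_FGO replicate 2, at 747 and 740.4 FPKM. Inha, Gja1 and Amh are among the 7 of 16 granulosa markers that were higher in WT_FGO replicate 2 than in replicate 1. Not drawn are the 4 that were lower there and the 5 at 0 in both.

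Genes related to the 6 by pathway, by family or by the timing of translation were followed in 7 lists, which held 110 genes, 95 of them tested. At maturation 11 of the 95 were called higher in WT_MII and 9 lower, where 3.67% and 3.09% of all tested genes were called. Among the 11, 10 belonged to the list of genes translated after meiotic resumption. That list was drawn in part from genes the study followed by western blot or reporter in maturing oocytes. It was also chosen with earlier results of these data known, so nothing is read from the total. The 11 fell to 0 without WT_MII replicate 1, Treat_MII replicate 1 or Treat_MII replicate 2, as did the 9, and 8 and 2 were called without WT_MII replicate 2. None of the 95 was called in the treatment comparison by limma, where 12 had an unadjusted p under 0.05 (5.82% of all tested genes did), and the voom fit called 5 higher and 1 lower in Treat_MII.

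No other gene of the plasminogen system passed the test at maturation. Of 14 genes, 11 were tested and limma called 0, with 1 at an unadjusted p under 0.05, as 22.8% of all tested genes were. The gene with the highest mean FPKM was Serpini1, which encodes neuroserpin, an inhibitor of tissue-type plasminogen activator, at 431 and 273 FPKM in WT_FGO, 103 and 180 in WT_MII, and 182 and 174 in Treat_MII (log2 change at maturation -1.32 ± 0.41 SE, adjusted p = 0.123 by limma). Plaur, the receptor of urokinase, varied between 0 and 45.4 FPKM (0 to 10 reads). Every tested gene of the list but Serpini1 and Lrp1 had at most 10 reads in each library. The lack of calls thus says little of their change.

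The zona glycoproteins, among which ZP2 is the substrate of ovastacin, fell at maturation, whereas Astl was not called by limma on log2(FPKM + 1). The voom fit called Astl lower, with a log2 change of -0.57 ± 0.18 (SE). Zp1, Zp2 and Zp3 are also oocyte markers, and of 11 tested markers 9 were called lower. Of the 9 genes in the list of ovastacin relatives, inhibitor and substrates, all were tested, 3 were called lower and none higher. Over all tested genes limma called 3.09% lower and 3.67% higher. Zp3 fell by 3.53 ± 0.31 (SE) on the log2 scale (adjusted p = 0.00338 by limma), Zp2 fell by 2.84 ± 0.34 (adjusted p = 0.0096) and Zp1 fell by 2.46 ± 0.29 (adjusted p = 0.00898). Zp2 stood at 8407 and 4037 FPKM in WT_FGO, 774 and 856 in WT_MII, and 2109 and 2094 in Treat_MII, where the groups did not overlap. Fetub, the gene of fetuin-B, which inhibits ovastacin, was named after its values were seen, with a log2 change of -1.65 ± 0.38 (SE) that missed the threshold (adjusted p = 0.0614).

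Of the 12 genes of cortical granule exocytosis, the step that releases ovastacin, 8 were tested and 3 were called lower at maturation. Over all tested genes limma called 3.09% lower. Calr, the chaperone calreticulin, fell by 4.72 ± 0.45 (SE, adjusted p = 0.00463 by limma) from 2668 and 1143 FPKM in WT_FGO to 68.0 and 62.5 in WT_MII. Nsf, the ATPase that takes SNARE complexes apart, fell by 4.21 ± 0.45 (adjusted p = 0.00673 by limma). It went from 176 and 188 FPKM (37 and 45 reads) to 8.14 and 9.69 FPKM (3 and 5 reads). Napa, its adaptor alpha-SNAP, was at 83.9 and 21.1 FPKM in WT_FGO (7 and 2 reads) and at 0 in both WT_MII libraries (adjusted p = 0.0441).

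Juno is held by a GPI anchor, and 3 genes of anchor synthesis were called at maturation. Of 22 listed genes 19 were tested, 1 was called higher, 2 lower and 16 not, where 3.67% and 3.09% of all tested genes were called. Pigf, which helps to add the ethanolamine phosphate of the anchor, rose by a log2 change of 2.19 ± 0.30 (SE, adjusted p = 0.0143 by limma). Pigk, the catalytic subunit of the transamidase that joins the anchor to proteins, fell by 2.19 ± 0.32 (adjusted p = 0.0173), from 919 and 650.3 FPKM in WT_FGO to 147 and 194 in WT_MII. Dpm2, a regulatory subunit of dolichol-phosphate mannose synthase, was at 107 and 70.3 FPKM in WT_FGO (4 and 3 reads) and at 0 in WT_MII (adjusted p = 0.00829).

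Among 29 other tetraspanins, 25 were tested and only Tspan6 was called at maturation, as lower in WT_MII (adjusted p = 0.044 by limma). It had 1 and 3 reads in WT_FGO against 0 in WT_MII. Over all tested genes limma called 3.09% lower. Of the folate receptors, integrins and partners of tetraspanins, 11 of 12 were tested and limma called 0, with 6 at an unadjusted p under 0.05, against 22.8% of all tested genes. Cd55, a GPI-anchored regulator of complement, had the highest mean FPKM of that list, with 258 and 139 FPKM in WT_FGO and 49.2 and 96.7 in WT_MII (adjusted p = 0.177), followed by Itga9, the integrin alpha 9 subunit, with 6.56 and 0 FPKM in WT_FGO and 33.7 and 87.0 in WT_MII (adjusted p = 0.0706). Folr1 and Folr2, the folate receptors related to Juno, were named after their values were seen, with a single read or none in each library.

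Genes known to be translated after meiotic resumption rose at maturation, as Plat did. That list was drawn in part from genes the study followed by western blot or reporter in maturing oocytes. It was also chosen with earlier results of these data known, so its direction is not independent evidence. Of its 12 genes, all tested, 10 were called higher at maturation and none lower, with a median log2 change of 4.37 against -0.44 for all tested genes. Ccnb1, cyclin B1, rose from 0 FPKM in both WT_FGO libraries to 235 and 322 in WT_MII (adjusted p = 0.00118 by limma). Dazl, an RNA-binding activator of translation, rose from 23.7 and 0 FPKM (2 and 0 reads) to 651 and 683 FPKM (adjusted p = 0.0378 by limma). Cnot7, a deadenylase subunit with 1 and 8 reads in WT_FGO, rose by 5.96 ± 0.81 (SE, adjusted p = 0.0142 by limma). Bub1b, a spindle checkpoint kinase, rose by 5.56 ± 0.55 (SE, adjusted p = 0.00523 by limma).

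**Figure D5:**
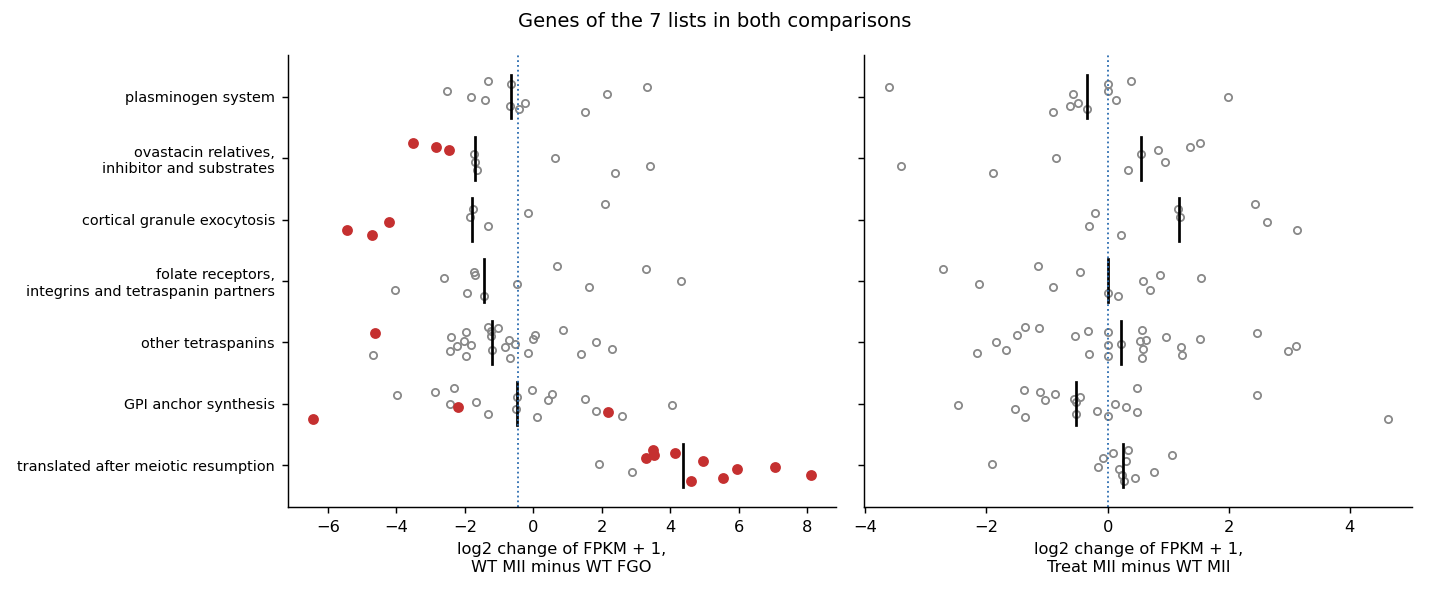
Fitted log2 change of FPKM + 1 for each tested gene of the 7 lists, at maturation (left) and under treatment (right); red points passed the limma test, black bars are list medians and the dotted line is the median of all tested genes. The 10 called genes of the last list all lie above 3 at maturation, and no gene is called under treatment.

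Sequence features that were not used to choose the genes were read from the longest coding transcript of each gene in GENCODE release M21 (GRCm38). The CPE, spelled TTTTAT or TTTTAAT on the mRNA strand, lay in the last 100 bases of the 3′-UTR of 1 of the 6 genes, Plat, and of 18.8% of the 13989 tested genes with a 3′-UTR of that length. The share was 41.3% among genes called higher at maturation (222 of 538) and 11.4% among those called lower (47 of 414). With the whole 3′-UTR searched, 4 of the 6 genes (Plat, Serpine2, Cd9 and Cd81) and 61.4% of tested genes held it, and with TTTTAT alone none of the 6 did, against 14.6%. A match of letters is not a site shown to be used, and its absence from this window says nothing of other elements.

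The ends of the other transcripts are shown for comparison with Plat, each as a 30-base window with the poly(A) signal AATAAA in capitals where the last 50 bases held it, as in 5 of the 6 genes and 78.7% of tested genes (AATAAA or ATTAAA). Izumo1r and Cd9, which were lower at MII, had the signal 16 and 14 bases before the end of the transcript and no CPE in the last 100 bases. The annotated gene of Izumo1r runs on past the end of the transcript used, to chr9:14885814. What is said of its end thus holds for that isoform only. Serpine2 had no signal, and the last 30 bases of its annotated transcript begin with a run of A. The windows are chr2:127357616-127357645 (plus) for Astl, chr9:14900027-14900056 (minus) for Izumo1r, chr6:125460268-125460297 (minus) for Cd9, chr7:143067888-143067917 (plus) for Cd81 and chr1:79794197-79794226 (minus) for Serpine2, and each was the same in the GRCm38 genome.
Astl: ggaaaaggtagaAATAAAgttgggtgtttg
Izumo1r: catggtaccttcAATAAAaggctaggaaac
Cd9: aatttgatacatAATAAAagattataacag
Cd81: aaacagtcatttAATAAAggaggaaaaaaa
Serpine2: aaaaaaaaaaaaatttttgaaaagaccatg

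Because the treatment binds rG4s, the transcripts were also searched for 4 runs of 3 or more G that are 1 to 7 bases apart. None of the 6 genes held this motif in the 5′-UTR or the coding sequence, where 7.60% and 4.42% of tested genes held it. Plat held it in the 3′-UTR, as did 11.6% of tested genes, in a stretch of 25 bases that ends 594 bases before the end of the transcript. It is printed below within chr8:22782223-22782252 (plus strand), with the G runs in capitals, and a motif of this kind is not a measured rG4.
Plat G-quadruplex motif: ctcGGGagaGGGGaGGGGGGtctttGGGag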

How the data were processed

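The authors deposited FPKM values per gene and library, scaled to coding sequence length and library reads. The submitters' processing notes name cutadapt 1.14, Bowtie2 2.2.2, STAR 2.5.3a and mm10. The counting program, its strand setting, the annotation and the use of molecular identifiers are not given in the sources used here, and no spike-in is stated. Of 22442 entries, 26 with a repeated name were left out (the one with the highest mean was kept). Multiplied by coding lengths of GENCODE release M21, the FPKM values gave whole reads within 0.02 in all libraries for 96.4% of genes, and 3 reads were taken as the floor per library. log2(FPKM + 1) was fitted for genes averaging 1 FPKM or more with limma 3.58.1 (R 4.3.3) with a mean-variance trend, 3 groups and all 6 libraries; p-values were adjusted by Benjamini-Hochberg over 15129 genes and called under 0.05. The fit was tested on simulated data. The log2(FPKM + 1) scale understates the change of low genes. The p-values measure only the spread between these libraries. The 6 genes and all lists were chosen with earlier results of these data known. Of each list, genes called in a comparison (at most 4) were named, otherwise the 2 with the highest mean. Alternatives were other pseudocounts, filters, scalings, spread models, voom, a replicate term and leaving out each library, where the remaining library of that group was assumed to vary like the other groups.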

Additional observations from a re-analysis of the deposited data

How the results depend on the processing

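Of the 6 genes, 3 were called at maturation. The count was 1 with a pseudocount of 0.1 (Cd9), 0 with only the compared groups, 0 without the mean-variance trend and 5 with voom, and it ranged from 0 to 4 with a library left out. Of the genes of the 7 lists, 20 were called, 0 with only the compared groups and 8 without the trend, and from 0 to 24 with a library left out. With only the compared groups limma called 0 of all tested genes, 2858 of which had an unadjusted p under 0.05. In the treatment comparison voom called 1 of the 6 genes and 6 of the lists, where the fit described above called 0 of each, and every library left out gave 0. Voom called 2378 genes at maturation against 1023. The replicate block gave 2 of the 6 genes (Cd9 and Plat), 18 of the lists and 788 genes in all at maturation, and 0 in the treatment comparison. Deviations of same-numbered libraries correlated at 0.0175 to 0.0342 over 2707 genes, so the numbers were not taken as pairs. Median centring and quantile normalization left the 3 calls at maturation and moved the median of all genes from -0.44 to 0.02 and -0.03. The maturation change of Plat, Serpine2, Izumo1r and Cd9 kept its sign in all 16 alternatives, and that of Astl in 15. WT_FGO had the fewest reads, and Plat, Serpine2 and Cd81 had at most 3 reads in at least 1 of its libraries, which limits the size of their changes.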
